A study of Mus musculus with 33 samples.

Results

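Core genes of the pluripotency network of mouse embryonic stem cells (mESCs) were followed through the loss of pluripotency as mESC-derived paraxial mesoderm (PM) was induced toward tendon or fibrocartilage. The members were chosen by gene symbol: Pou5f1, Nanog, Sox2, Zfp42, Esrrb, Dppa5a, Klf4, Lin28a, Utf1 and Tfcp2l1. All 10 were present among the 17120 genes of the count table, and the filter on low counts removed no gene. Every gene of this table had at least 0.611 counts per M total counts in 3 or more libraries. Shares over all genes given below are shares of this table. The lowest count of any member in any library was 116.

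All cultures came from mESCs of blastocysts carrying ScxGFP, a transgene in which regulatory DNA of the tendon gene Scx drives green fluorescent protein. They formed embryoid bodies with the BMP inhibitor LDN-193189 and were then specified to PM with the Wnt agonist CHIR and LDN-193189. The study's methods also describe PM specification with AGN or with retinoic acid added, and whether AGN was present in the PM that fed these libraries is not given in the sources used here. By the labels, PM at D6 was embryoid bodies and all later samples were monolayers. From D6 the medium held TGFβ1, the hedgehog agonist SAG and FGF2, together with either CD1530, an agonist of retinoic acid receptor gamma, or AGN 193109 (AGN), which holds all retinoic acid receptors in their inactive state. The collection times of both series were D6.25 and D6.75, then D7.5 and D8.5, and last D10. This gives 11 groups of 3 biological replicates and 33 libraries. The mESCs had been kept on feeder cells, no library of undifferentiated mESCs was analysed here, and each library is a whole culture.

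Pluripotency is held by a circuit of transcription factors. Pou5f1 (Oct4), Sox2 and Nanog bind many of the same enhancers, among them those of their own genes, and Esrrb, Klf4 and Tfcp2l1 join them in the naive state of the early epiblast. When cells leave that state, naive factors and their targets, such as Zfp42 (Rex1) and Dppa5a, are turned down, while Pou5f1, Utf1 and Lin28a stay on in the primed epiblast. Sox2 is also used by neural progenitors, Pou5f1 and Nanog by germ cells, and Klf4 by endothelium, skin and other tissues. Retinoic acid is a classical inducer of mESC differentiation.

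Total counts were between 17.1 and 22.8 M per library, except in replicate 1 of AGN at D8.5, with 38.1 M. Within groups, libraries correlated at 0.9927 to 0.9977 (Pearson, log expression). PM held transcripts of mesoderm genes beside the pluripotency genes: the early mesoderm factor T (Brachyury) was at 79.0 ± 4.0 CPM (counts per M counts of the scaled library; SD, n = 3), Tbx6 at 9.56 ± 0.77 and Msgn1 at 3.38 ± 0.61. Scx, the defining tendon factor, went from 6.41 ± 0.85 CPM in PM to 858 ± 17.4 with CD1530 and 1223 ± 27.8 with AGN by D10.

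Members lie on 9 chromosomes (GRCm38), and 9 of them have an entry in the RefSeq promoter table (GRCm38.p6), with 12 start sites in all. Each promoter spans 250 bases before to 50 bases after a start. The promoters shown are those of Zfp42, the only one with the octamer ATGCAAAT that POU factors recognise, and of the first start of Pou5f1 and of Nanog, which were added after their values were seen, as factors of the core circuit that ended on opposite sides between ligands. Capitals mark the octamer (read on the opposite strand in Zfp42), the Sox motif ACAATG, and the nuclear receptor motifs AGGTCA and GGGTCA on either strand.
Pou5f1 (chr17:35505782-35506081, + strand): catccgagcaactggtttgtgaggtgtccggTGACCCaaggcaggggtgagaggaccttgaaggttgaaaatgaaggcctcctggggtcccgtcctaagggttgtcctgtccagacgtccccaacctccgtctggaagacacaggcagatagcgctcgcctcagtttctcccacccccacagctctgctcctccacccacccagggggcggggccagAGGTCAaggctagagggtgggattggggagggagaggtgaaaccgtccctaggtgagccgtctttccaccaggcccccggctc
Nanog (chr6:122707239-122707538, + strand): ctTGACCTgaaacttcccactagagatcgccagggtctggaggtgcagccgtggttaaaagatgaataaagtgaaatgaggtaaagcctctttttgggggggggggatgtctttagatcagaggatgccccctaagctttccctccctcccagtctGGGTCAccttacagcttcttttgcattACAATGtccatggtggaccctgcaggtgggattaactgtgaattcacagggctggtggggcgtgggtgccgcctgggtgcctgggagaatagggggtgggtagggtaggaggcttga
Zfp42 (chr8:43306960-43307259, - strand): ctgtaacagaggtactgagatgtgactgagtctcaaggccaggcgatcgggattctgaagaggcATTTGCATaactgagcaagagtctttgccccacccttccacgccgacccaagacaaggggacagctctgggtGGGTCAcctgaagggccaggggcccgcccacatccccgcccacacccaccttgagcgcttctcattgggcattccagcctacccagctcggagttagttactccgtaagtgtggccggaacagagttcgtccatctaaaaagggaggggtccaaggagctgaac
The Pou5f1 promoter held GGGTCA at -219 on the opposite strand and AGGTCA at -33, counted from the start, and no Sox motif. The Nanog promoter held AGGTCA at -248 on the opposite strand, GGGTCA at -94 and ACAATG at -67. In Zfp42 the octamer began at -186 and GGGTCA at -114. Over all 12 promoters the octamer occurred in 1, against 1.74% of the 32851 promoters in the table. A Sox motif (ACAAAG or ACAATG) occurred in 6 of 12, against 28.6%, and AGGTCA or GGGTCA in 8 of 12, against 27.5%. Pairs of such receptor motifs on the same strand, 1, 2 or 5 bases apart, occurred in 0 of 12, against 0.198%. Sites of these letters were found in members that ended higher in CD1530 (Nanog, Sox2, Esrrb, Tfcp2l1) as well as lower (Pou5f1, Lin28a). No site was found in Klf4 or Utf1, which also ended lower, and Dppa5a has no promoter entry. The 2 Nanog promoters overlap and share their ACAATG and GGGTCA sites (-94 and -67 in the one shown), so each of these is counted in both. Motifs overlapped once, in Lin28a. Only exact matches were sought, so near variants of these motifs, also of the octamer, are not marked or counted. A match is a description of the sequence and not of binding.

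In PM, the level per kilobase of exon was highest for Dppa5a, at 1362 ± 67.0 CPM per kb (SD, n = 3). Pou5f1 followed at 312 ± 3.64, Sox2 at 260 ± 3.13, Nanog at 208 ± 3.39 and Utf1 at 186 ± 10.8. Esrrb was at 89.7 ± 1.68, Lin28a at 66.8 ± 1.57, Zfp42 at 57.0 ± 1.89, Klf4 at 48.1 ± 1.34 and Tfcp2l1 at 39.1 ± 2.36. All neighbours in this order lay further apart than their SDs. The Dppa5a value carries a limit, since 7 other annotated genes share at least 10% of the 31-base words of its transcript and 4 of them are in the table, each with counts of 0.206% to 3.37% of those of Dppa5a. Zfp42 shares such words with the pseudogene Zfp42-ps1, whose counts were 3.31% of its own. Pou5f1 overlaps the antisense gene Gm19553, not analysed here, and whether strand was used in counting is not given in the sources used here.

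The first step of induction asks how fast the network was lost. From D6 to D6.25, 6 hours after the change of medium, all 10 members fell with either ligand. The background was 33.3% of all genes called lower in CD1530 and 33.1% in AGN (edgeR quasi-likelihood test, Benjamini-Hochberg adjusted p under 0.05, the rule for every call here). The median log2 fold change of the members was -1.06 in CD1530 and -1.12 in AGN, against 0.00 over all genes in both. By the labels, embryoid bodies gave way to monolayers at this step, so the effects of medium and of culture format cannot be told apart. In bulk RNA, fewer pluripotent cells and less RNA in each of them cannot be told apart either.

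Klf4, a Krüppel-like naive factor, fell furthest at this step. Its 3 PM libraries were at 148, 142 and 150 CPM, and at D6.25 those of CD1530 were at 49.6, 53.2 and 53.3 and those of AGN at 59.6, 56.1 and 58.3. Every D6.25 library was below every PM library, and Klf4 fell by 1.49 ± 0.05 (log2, SE, adjusted p = 4.34e-27) with CD1530 and by 1.34 ± 0.05 (1.8e-25) with AGN. Tfcp2l1, a naive factor downstream of LIF and Wnt signalling, came next, with 39.7% ± 1.33 of its PM level left in CD1530 and 42.2% ± 0.61 in AGN (SD, n = 3). Pou5f1, Nanog, Sox2, Zfp42, Esrrb and Dppa5a formed a middle group with 45.0% to 54.0% left in either series. Lin28a, an RNA-binding protein that blocks let-7 maturation, kept 62.5% ± 1.77 and 67.6% ± 1.41. Utf1, a chromatin-bound coactivator of the epiblast, kept the most, 71.4% ± 2.10 in CD1530 and 74.4% ± 1.52 in AGN.

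**Figure D1:**
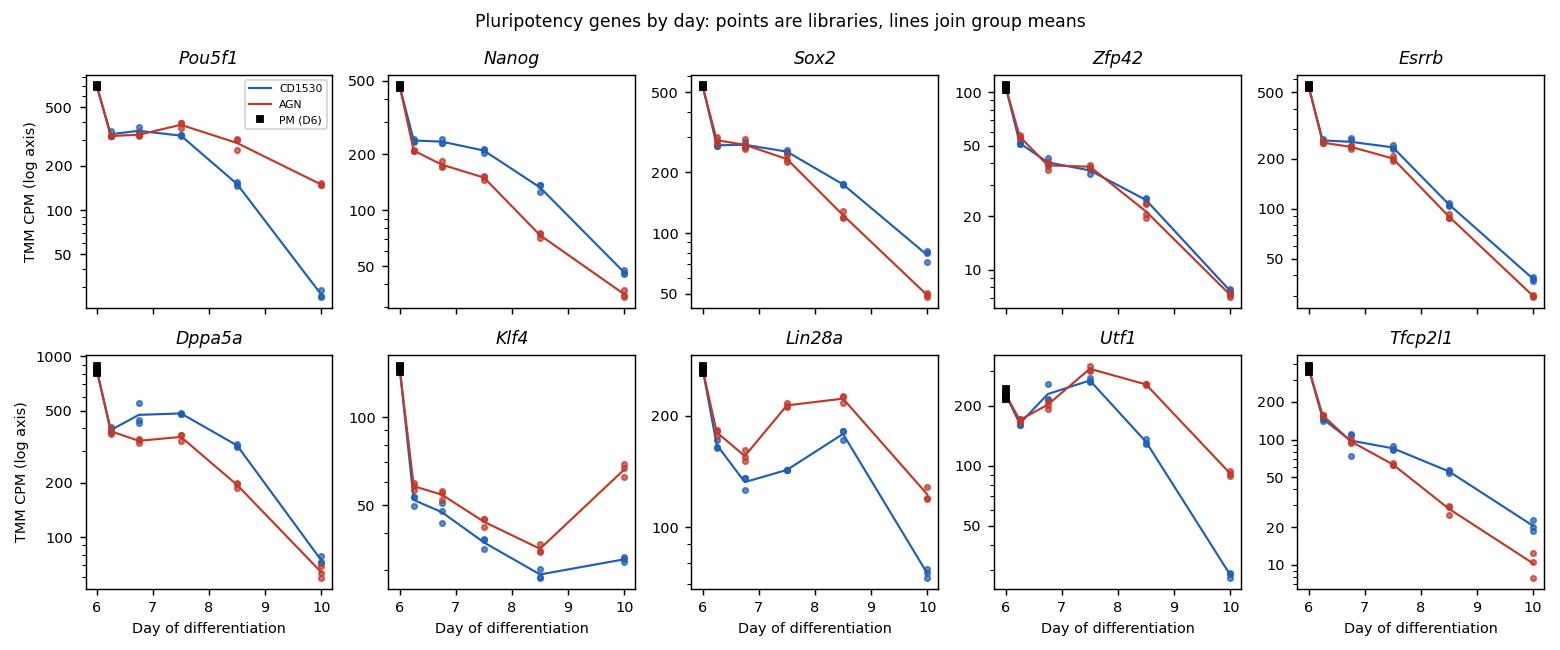
CPM of each member (log axis, a separate range in each panel) against the day of differentiation, with a point for each library and lines through the means of CD1530 (blue) and AGN (red), both starting from PM (black squares). All panels fall between D6 and D6.25; Pou5f1 ends far lower in CD1530 (26.6 CPM) than in AGN (149), and Klf4 turns up in AGN between D8.5 and D10.

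The members then moved in different ways. Tfcp2l1 kept falling, by 0.58 ± 0.10 from D6.25 to D6.75 in CD1530 (log2, SE, adjusted p = 4.84e-05), and in AGN by 0.69 ± 0.10 (5.88e-06) and then by 0.61 ± 0.11 to D7.5 (8.16e-05). Zfp42 fell by 0.36 ± 0.05 in CD1530 (2.77e-07) and by 0.54 ± 0.05 in AGN (3.15e-11) to D6.75, and Klf4 by 0.34 ± 0.05 (1.82e-06) and 0.31 ± 0.05 (9.94e-06) from D6.75 to D7.5. Between D6.25 and D6.75, 6 members were called in CD1530 (2 higher and 4 lower), against a background of 45.9% of all genes, and 6 in AGN (1 higher and 5 lower), against 43.7%. Between D6.75 and D7.5, 7 were called in CD1530 (2 higher and 5 lower, background 34.2%) and 8 in AGN (3 higher and 5 lower, background 30.3%). The CD1530 calls at D7.5 were small changes: 5 of the 7 lay between -0.16 and 0.11 (log2), and only 1 member stayed called when the compared groups were fitted alone. Pou5f1 changed little in CD1530. It was at 46.9% of PM at D6.25, 49.5% at D6.75 and 45.8% at D7.5, and neither step was called, although the second was with other size factors (DESeq2 or library size) or without replicate 2 or 3 of D6.75. In AGN it went from 45.6% to 46.5% and then rose to 54.3% at D7.5, a change of 0.22 ± 0.05 (log2, SE, adjusted p = 0.000128).

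Utf1 rose between D6.25 and D7.5 and passed its PM level with both ligands. Its libraries were at 217, 243 and 224 CPM in PM. At D7.5 they were at 276, 267 and 262 CPM in CD1530 and at 302, 300.5 and 318 CPM in AGN, so that all 6 lay above the 3 PM libraries. From D6.25 to D6.75 Utf1 rose by 0.49 ± 0.05 (log2, SE, adjusted p = 1.79e-11) in CD1530 and by 0.26 ± 0.05 (2.59e-05) in AGN. From D6.75 to D7.5 it rose by 0.23 ± 0.05 (0.000174) and 0.60 ± 0.05 (1.22e-13). The D6.75 value of CD1530 includes replicate 1 at D6.75, which was at 257 CPM where the others were at 215 and 216. The same library also stood apart for Dppa5a and Tfcp2l1, as given below, so these D6.75 deviations are not separate observations.

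Lin28a recovered later. It was at 49.6% ± 2.01 of PM in CD1530 and 58.3% ± 1.98 in AGN at D6.75 (SD, n = 3). By D8.5 it was back at 66.9% ± 2.12 and 83.3% ± 1.82. In CD1530 it rose mainly from D7.5 to D8.5 (0.32 ± 0.04, adjusted p = 2.43e-09), and the step before was 0.11 ± 0.04 (0.0209), a call lost with the compared groups alone, with scaling by library size alone, and without replicate 2 of D6.75 or replicate 3 of D7.5. In AGN the rise took place by D7.5 (0.46 ± 0.04, log2, SE, adjusted p = 2.73e-13) and the change from D7.5 to D8.5 was 0.06 ± 0.04 (0.185). Dppa5a, a small KH-domain protein of naive cells, rose between D6.25 and D6.75 in CD1530 by 0.28 ± 0.06 (0.000333) and fell in AGN by 0.18 ± 0.06 (0.0196). The CD1530 libraries at D6.75 were at 550 (replicate 1), 429 and 446 CPM, and the rise was not called with the compared groups alone. The AGN fall was not called without replicate 2 of D6.25 or replicate 1 of D6.75.

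After D7.5 nearly all members fell. From D7.5 to D8.5, 9 members fell and Lin28a rose in CD1530, against a background of 17.7% of all genes called lower. In AGN 9 fell and Lin28a was not called, against 20.6%. From D8.5 to D10, 9 members fell and Klf4 rose with either ligand, against backgrounds of 29.9% called lower in CD1530 and 29.5% in AGN. The members' median log2 changes over this last step were -1.50 and -1.39. With scaling by library size alone, the all-gene calls leaned further down, with 3766 lower and 2566 higher (CD1530) and 5176 lower and 2461 higher (AGN) at D8.5, and 6520 lower and 3610 higher (CD1530) and 6406 lower and 4041 higher (AGN) at D10. The member calls that fell were the same in number.

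By D10 all 10 members were lower than in PM with both ligands. Genes called lower made up 39.9% of all genes in CD1530 and 40.4% in AGN, and the members' medians were -3.42 and -3.58 (log2) against 0.04 and 0.00 over all genes. Zfp42 had 7.10% ± 0.18 of its PM level left in CD1530 and 6.75% ± 0.21 in AGN (SD, n = 3). Esrrb had 6.98% ± 0.16 and 5.51% ± 0.09. Tfcp2l1 had 5.56% ± 0.61 and 2.79% ± 0.62, the lowest level left in AGN. Pou5f1 had the lowest level left in CD1530, 3.80% ± 0.23, but 21.3% ± 0.46 in AGN. Klf4, Lin28a and Utf1 were at 45.1% ± 2.27, 45.9% ± 1.93 and 40.1% ± 1.22 in AGN, and these 3 values lay close together, within about their SDs for Klf4 and Lin28a. Klf4 had been at 24.1% ± 0.88 in AGN at D8.5 and had risen again.

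**Figure D2:**
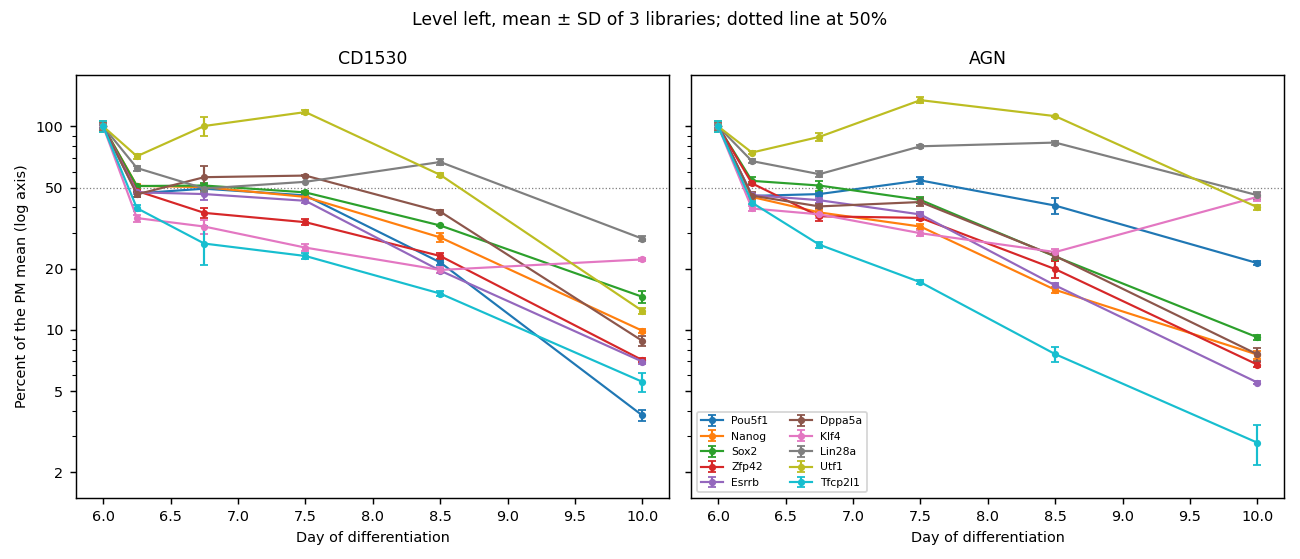
Level of each member as a percent of its PM mean (log axis) against the day of differentiation, CD1530 on the left and AGN on the right; points are means and bars SDs of 3 libraries, and the dotted line marks 50%. Utf1 rises above 100% at D7.5 in both panels, and Pou5f1, at 3.80% in CD1530, is at 21.3% in AGN at D10.

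The steps took different shares of the whole loss. For Nanog, Sox2, Zfp42, Esrrb, Dppa5a and Tfcp2l1, the first 6 hours held 23.9% to 35.0% of the log2 loss between PM and D10 in either series, and the last step held 28.1% to 60.3%. For Pou5f1 the first step was 23.2% of the loss in CD1530 and 50.8% in AGN, since its total loss in AGN was smaller. For Klf4 the first step was 68.8% in CD1530, and in AGN 116%, because the gene later rose. For Utf1 the last step was 73.8% of the loss in CD1530 and 113% in AGN, where the intermediate rise had to be undone first.

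The time at which a member first reached 50% of its PM mean, read from straight lines between group means on the log2 scale, ordered the members from early to late. It carries no test. Klf4 (4.01 hours after D6 in CD1530 and 4.48 in AGN) and Tfcp2l1 (4.50 and 4.82 hours) came first. Esrrb, Dppa5a and Pou5f1 followed, at 5.29 to 5.58 hours in both series. These times lie inside the first interval, in which no library was taken. Zfp42 reached 50% at 5.70 hours in CD1530 and 7.59 in AGN. Utf1 came last in CD1530, at 63.4 hours, and was at 88.3 hours in AGN, next to Lin28a at 90.9 hours.

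For members that stayed near 50% for some time, this time rested on small differences. Nanog reached 50% at 5.21 hours in AGN and 19.1 in CD1530, although its levels at D6.25 were 45.0% ± 0.52 and 51.1% ± 1.06 of PM (SD, n = 3). Sox2 was at 20.7 hours in AGN and 23.7 in CD1530. Lin28a in CD1530 was at 17.5 hours, or 0.731 days, because its D6.75 mean touched 49.6%. Leaving out replicate 1 of PM moved this to 3.02 days and leaving out replicate 2 of D6.75 to 3.00 days.

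How the retinoid ligand bore on the loss was asked by comparing the 2 series at matched times. At D6.25, 1 member was called, against 1.92% of all genes. At D6.75 it was 5 (3 higher and 2 lower in CD1530), against 18.0%. With the compared groups alone these were 3 members and 804 genes at D6.25 and 3 members and 1236 genes at D6.75, and leaving out 1 library gave 196 to 276 genes at D6.25. At D7.5 it was 9 (5 higher and 4 lower), against 26.9%. At D8.5 all 10 were called (6 higher and 4 lower), against 40.0%, and at D10 9 (5 higher and 4 lower), against 46.6%. The median difference of the members stayed between -0.07 and 0.23 (log2) because they split into opposite directions.

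The factors of the core circuit parted in opposite directions. Pou5f1, the POU factor of the circuit, did not differ by the test at D6.25 or D6.75. At D8.5 the CD1530 libraries were at 146, 155 and 151 CPM and the AGN libraries at 256, 298 and 305. At D10 they were at 28.4, 26.0 and 25.5 CPM with CD1530 and at 153, 148 and 147 with AGN, so that the lowest AGN library was several-fold above the highest CD1530 library. The fold changes were -0.24 ± 0.05 at D7.5 (log2, SE, adjusted p = 3.68e-05), -0.93 ± 0.05 at D8.5 (4.32e-20) and -2.49 ± 0.06 at D10 (1.44e-32), the last a 5.60-fold lower level in CD1530.

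Nanog, the homeodomain factor, was the only member called at D6.25, and it was higher in CD1530 from then on. Its libraries at D6.25 were at 243, 234 and 237 CPM in CD1530 and 213, 209 and 208 in AGN, a difference of 0.18 ± 0.04 (log2, SE, adjusted p = 0.00268). The gap was widest at D8.5, with 137, 125 and 136 CPM against 75.1, 70.9 and 74.0 (0.85 ± 0.04, 3.63e-21). By D10 it had narrowed to 0.39 ± 0.05 (3.79e-09), with 47.5, 45.3 and 45.6 CPM against 37.1, 34.7 and 33.9. The groups did not overlap at any time point.

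Sox2, the HMG-box partner of Pou5f1, was first called at D7.5, by 0.12 ± 0.04 (log2, SE, adjusted p = 0.0212), a call that was lost without replicate 2 of CD1530, replicate 1 of AGN or replicate 2 of AGN. At D10 it was at 71.8, 81.9 and 79.9 CPM in CD1530 and 50.4, 48.0 and 49.3 in AGN, 0.66 ± 0.05 higher in CD1530 (3.05e-15). The neural progenitor list, of which Sox2 is a member, had the same direction between ligands at D10. Over time it went the other way: its other genes rose in sum from PM, while Sox2 fell from 536 ± 6.44 CPM in PM (SD, n = 3). Without Sox2, 11 of its 11 measured genes were called higher in CD1530 at D10, against 22.7% of all genes. Of these 11, 3 had at most 3 counts in every AGN library at D10. Genes so low in AGN may be in the count table only through their CD1530 levels, which would favour such calls. The summed level of the 11 was 97.3 to 105 CPM in PM. At D10 it was 872 to 874 CPM in CD1530 against 468 to 502 in AGN. At D8.5, where Sox2 was already 0.50 ± 0.04 higher (3.71e-13), those sums overlapped, at 657 to 704 CPM and 648 to 707 CPM. Of the 11 genes 7 were called, 6 higher and 1 lower, against 40.0% of all genes called. Their median was 0.60 (log2). Sox1, a defining marker of neural progenitors, rose from 0.08 ± 0.05 CPM in PM (SD, n = 3) to 16.0 ± 1.82 with CD1530 and was at 0.37 ± 0.17 with AGN by D10. The part of neural cells in the Sox2 difference was not tested.

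Within each library the ratio of Pou5f1 to Nanog counts needs no scaling between libraries. It was 1.46 to 1.53 in PM. In AGN it went to 1.50 to 1.54 at D6.25, 1.81 to 1.88 at D6.75, 2.50 to 2.56 at D7.5, 3.41 to 4.21 at D8.5 and 4.13 to 4.35 at D10. In CD1530 it stayed between 1.36 and 1.58 until D7.5, was 1.06 to 1.24 at D8.5 and came to 0.558 to 0.599 at D10. The same counts thus favoured Pou5f1 in AGN and Nanog in CD1530 at the end. The ratio of Pou5f1 to Sox2, 1.31 in every PM library, was 2.99 to 3.08 in AGN and 0.317 to 0.396 in CD1530 at D10, whereas that of Nanog to Sox2 lay between 0.553 and 0.893 in all 33 libraries.

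**Figure D3:**
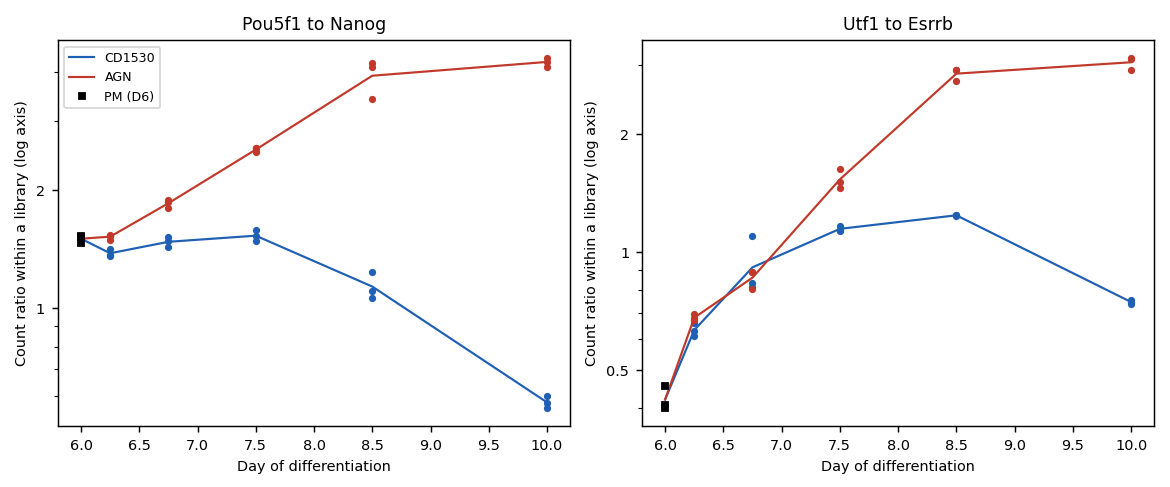
Ratio of Pou5f1 to Nanog counts (left) and of Utf1 to Esrrb counts (right) within each library (log axis) against the day of differentiation, points for libraries and lines for group means. The Pou5f1 to Nanog ratios of the ligands are already apart at D7.5 (1.49 to 1.58 in CD1530, 2.50 to 2.56 in AGN), ending at 0.577 in CD1530 and 4.24 in AGN on average.

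Of the naive factors, Tfcp2l1 and Esrrb ended higher in CD1530 and Klf4 ended lower. Tfcp2l1 was at 82.8, 84.4 and 88.3 CPM in CD1530 and 62.2, 64.7 and 62.9 in AGN at D7.5, and at 19.9, 18.6 and 23.0 against 10.5, 7.89 and 12.5 at D10. Its difference was 0.43 ± 0.11 at D7.5 (log2, SE, adjusted p = 0.00387), 0.98 ± 0.12 at D8.5 (2.95e-07) and 0.99 ± 0.16 at D10 (1.97e-05). Esrrb, an orphan nuclear receptor that can stand in for Nanog, differed less, by 0.22 ± 0.04 at D7.5 (8.61e-06), 0.24 ± 0.04 at D8.5 (3.41e-06) and 0.34 ± 0.05 at D10 (1.76e-07). At D6.75 neither was called, but replicate 1 of CD1530 stood apart with 73.7 CPM of Tfcp2l1 beside 109 and 112, and without it Esrrb was higher in CD1530 by 0.15 (0.000292) and Tfcp2l1 by 0.19 (0.0361).

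Klf4 was lower in CD1530 from D6.75 on. The difference was -0.20 ± 0.05 at D6.75 (log2, SE, adjusted p = 0.00429), a call lost without replicate 3 of CD1530 or with the compared groups alone, then -0.24 ± 0.05 at D7.5 (0.000809) and -0.29 ± 0.06 at D8.5 (6.6e-05). From D8.5 to D10 it rose in AGN from 34.7, 34.6 and 36.9 CPM to 68.9, 67.1 and 62.4, by 0.90 ± 0.05 (3.03e-18). In CD1530 it went from 30.2, 28.1 and 28.4 CPM to 31.9, 33.1 and 32.7, by 0.17 ± 0.06 (0.0123), a call lost with scaling by library size alone and without replicate 2 of D8.5. At D10 the difference was -1.02 ± 0.05 (2.21e-19). Of the endothelial list, which shares Klf4, 7 of the 8 other genes were called at D10 (3 higher in CD1530, 4 lower, with 46.6% of all genes called), with sums of 205 to 218 CPM against 283 to 295 in AGN. At D7.5, by contrast, 7 of the 8 were higher in CD1530 (494 to 517 against 295 to 323 CPM) while Klf4 was lower, with 26.9% of all genes called. The lower D10 sum in CD1530 rested on Erg, an ETS factor of endothelium and cartilage. It stood at 43.9 ± 1.09 CPM with CD1530 and 133 ± 0.88 with AGN by D10 (SD, n = 3). Kdr, of the same list, went the other way, at 45.3 ± 1.78 CPM against 21.2 ± 1.29. The 6 cartilage genes were all lower in CD1530. The part of endothelial or cartilage cells in the Klf4 difference was not tested.

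Zfp42, a zinc finger gene widely used as a marker of naive cells, differed least. It was not called at D6.25, D6.75 or D7.5, was 0.22 ± 0.06 higher in CD1530 at D8.5 (log2, SE, adjusted p = 0.00344), and differed by 0.07 ± 0.09 at D10 (0.59). Its D10 libraries were at 7.63, 7.81 and 7.42 CPM in CD1530 and 7.25, 7.47 and 7.01 in AGN, and the groups overlapped. Dppa5a was higher in CD1530 at D6.75 by 0.48 ± 0.06 (5.48e-07), at D7.5 by 0.43 ± 0.06 (1.74e-06) and at D8.5 by 0.73 ± 0.06 (7.36e-11). At D10 its difference was 0.22 ± 0.07 (0.0119), with 71.8, 78.8 and 72.7 CPM against 63.1, 59.4 and 69.3, and the call was lost without replicate 2 of either group.

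Utf1 and Lin28a, which mESCs and primed epiblast share, were lower in CD1530 at the end. Utf1 changed direction: it was 0.18 ± 0.05 higher in CD1530 at D6.75 (log2, SE, adjusted p = 0.00551), a call lost without replicate 1 of CD1530, without replicate 2 of AGN or with the compared groups alone. The difference was then -0.19 ± 0.05 at D7.5 (0.00124), -0.96 ± 0.05 at D8.5 (4.84e-20) and -1.69 ± 0.06 at D10 (4.78e-26). The D8.5 libraries were at 129, 131 and 136 CPM in CD1530 and 258, 257 and 254 in AGN, and those of D10 at 28.9, 28.6 and 27.3 against 94.2, 88.6 and 91.3. Lin28a was lower in CD1530 from D6.75 on, with differences of -0.23 ± 0.04 (6.26e-06), -0.58 ± 0.04 at D7.5 (2.33e-16), -0.32 ± 0.04 at D8.5 (2.04e-09) and -0.71 ± 0.04 at D10 (8.74e-19). Its D10 libraries were at 75.0, 77.2 and 72.9 CPM in CD1530 and 129, 119 and 120 in AGN.

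**Figure D4:**
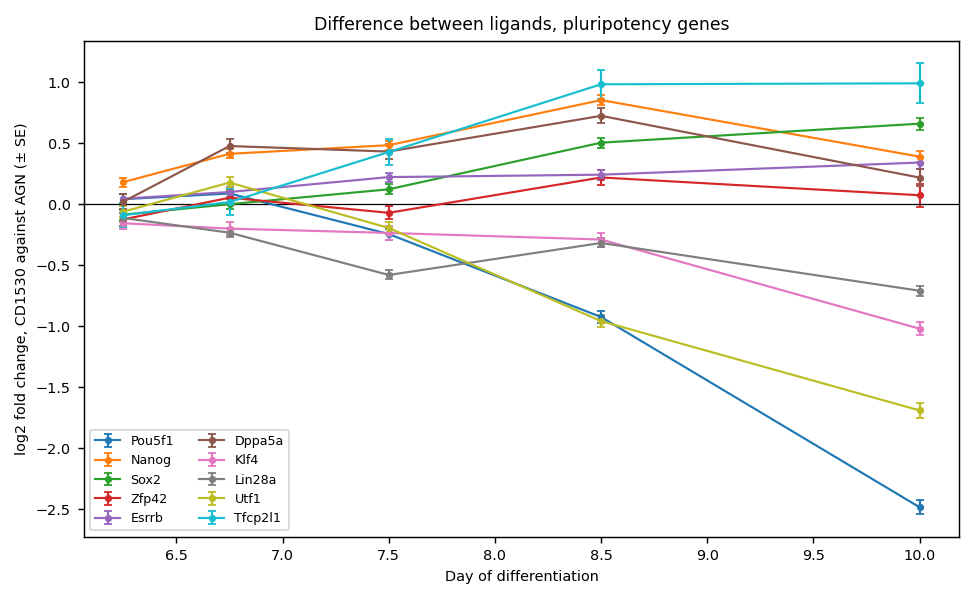
Log2 fold change of CD1530 against AGN for each member at the 5 time points (bars are SEs of the fit over 33 libraries), plotted against the day of differentiation, with 0 for equal levels. Pou5f1, Utf1, Klf4 and Lin28a end below 0, and Tfcp2l1, Sox2, Nanog, Esrrb and Dppa5a above it.

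Whether the ligand difference was the same at all 5 time points was tested as an interaction. It was called for all 10 members, against 48.8% of all genes. From D8.5 to D10 the ligand difference changed for 6 members, against 26.8% of all genes, and all 6 moved toward lower levels in CD1530. The shift was largest for Pou5f1 (-1.56 ± 0.07, log2, SE, adjusted p = 3.01e-20), followed by Utf1 (-0.73 ± 0.08, 4.36e-10) and Klf4 (-0.73 ± 0.08, 1.57e-09). Dppa5a (-0.51 ± 0.09), Nanog (-0.46 ± 0.06) and Lin28a (-0.39 ± 0.05) moved less. For Nanog and Dppa5a this was a narrowing of a difference in favour of CD1530, and for the other 4 a widening of one in favour of AGN.

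Other genes of the network moved in both directions. Of 22 further network genes from the list written for this comparison, 19 were called between ligands by D10 (7 higher in CD1530, 12 lower). Over all genes 22.7% were called higher and 24.0% lower, and the list median was -0.30 (log2) against -0.02. Fgf4, the epiblast growth factor, fell from 107 ± 2.06 CPM in PM (SD, n = 3) to 5.43 ± 0.32 with CD1530 and 32.5 ± 1.76 with AGN, and Tdh, the threonine dehydrogenase of mESCs, from 719 ± 11.7 to 4.25 ± 0.13 and 24.6 ± 1.39. Their differences between ligands were -2.58 ± 0.08 and -2.53 ± 0.09 (log2, SE).

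The primed epiblast list held 8 genes, of which 7 were in the table, Utf1 among them. Without Utf1, all 6 were lower in CD1530 at D10 (24.0% of all genes were), and at D6.25 3 of the 6 were called, all lower (1.92% of all genes called). Nodal, a TGFβ family ligand named here after its values were seen, went the other way in between: it was 0.48 ± 0.06 higher in CD1530 at D7.5 (log2, SE, adjusted p = 1.03e-08) and 1.03 ± 0.06 higher at D8.5 (2.43e-18), and its difference at D10 was -0.19 ± 0.07 (0.0293). Otx2, the factor that leads cells from the naive to the primed state, went from 8.18 ± 1.16 CPM in PM (SD, n = 3) to 1.07 ± 0.44 with CD1530 and 41.3 ± 2.80 with AGN by D10. Fgf5, a primed marker, went from 0.69 ± 0.37 to 1.14 ± 0.31 and 25.9 ± 0.19. Both had first risen with either ligand. At D6.25 Otx2 was at 60.4 ± 2.42 CPM with CD1530 and 72.7 ± 1.73 with AGN. Fgf5 was then at 69.2 ± 1.97 and 81.9 ± 3.39. The summed level of the 6 was 642 to 643 CPM in PM, 1231 to 1313 in AGN at D8.5 and 299 to 308 in CD1530 at D8.5. It was highest in AGN at D8.5, 1 time point after Utf1 had peaked. Dnmt3b made up most of that sum, at 874 ± 32.9 CPM. Pou3f1 was also highest in AGN at D8.5 (84.8 ± 6.13 CPM). Otx2 and Fgf5 were highest earlier in AGN, at D6.75 (117 ± 0.57) and D6.25 (81.9 ± 3.39). Zic2 and Nodal were highest in PM (221 ± 2.54 and 75.1 ± 1.01).

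At D10 most called germ cell genes were higher in CD1530, where Pou5f1 was lower. Without Pou5f1 and Nanog, 6 of 9 genes of the germ cell list were called (5 higher in CD1530, 1 lower). Over all genes 46.6% were called at D10, 22.7% higher and 24.0% lower. The sums of the 9 were 146 to 154 CPM against 47.8 to 49.6 in AGN. All of these sums were below the 567 to 578 CPM of PM. Dazl, an RNA-binding protein of germ cells, went from 25.2 ± 1.76 CPM in PM (SD, n = 3) to 40.3 ± 1.51 with CD1530 and 2.57 ± 0.09 with AGN. Of the 2-cell-like list, 6 of 10 genes were in the table. These were near 0 in PM and in every AGN group, so only their CD1530 levels can have placed them in the table. That all 6 were higher in CD1530 at D10 therefore carries no weight as a count. Their sum at D10 was 24.2 to 25.0 CPM in CD1530 against at most 0.119 in AGN. Zscan4d (6.87 ± 0.48 CPM) and Zscan4f (2.53 ± 0.38 CPM) had no count in any AGN library at D10, as did Usp17lc, so that their fitted folds cannot be ranked, and as near-identical copies the Zscan4 genes may share reads. In the neural list, Dbx1 and Neurog2, transcription factors of spinal progenitors, were at 2.79 ± 0.30 and 2.64 ± 0.26 CPM in CD1530 and with no count in any AGN library at D10.

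The shares over all genes at D10 were 46.6% called in either direction, 22.7% higher and 24.0% lower. Of the remaining marker lists, 7 of 9 tailbud and neuromesodermal genes (without Sox2) were called by D10 (2 higher in CD1530, 5 lower). T led them, with 0.50 ± 0.14 CPM against 27.1 ± 0.54 in AGN (SD, n = 3), then Fgf8, with 0.33 ± 0.17 against 6.52 ± 0.79. Of the endoderm list 8 of 10 were called, 5 higher and 3 lower, led by Foxa1 (79.7 ± 1.34 against 16.1 ± 1.63 CPM) and by Afp, which had at most 8 counts in any D10 library. Of the paraxial mesoderm list 6 of 8 were called, 5 higher and 1 lower, led by Mesp2 (0.93 ± 0.23 against 0.24 ± 0.06 CPM) and Pax3 (1.29 ± 0.45 against 0.43 ± 0.25). Of the tendon list 4 of 6 were called, 1 higher and 3 lower, among them Tnmd (-1.02 ± 0.19, log2, SE) and Scx (-0.51 ± 0.04). Of the cartilage list 6 of 6 were lower, with log2 fold changes of -5.53 ± 0.09 for Acan and -4.26 ± 0.10 for Matn4. Emcn, of the endothelial list, was 1.24 ± 0.16 higher in CD1530. The part of any of these cell types in the members' differences was not tested.

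**Figure D5:**
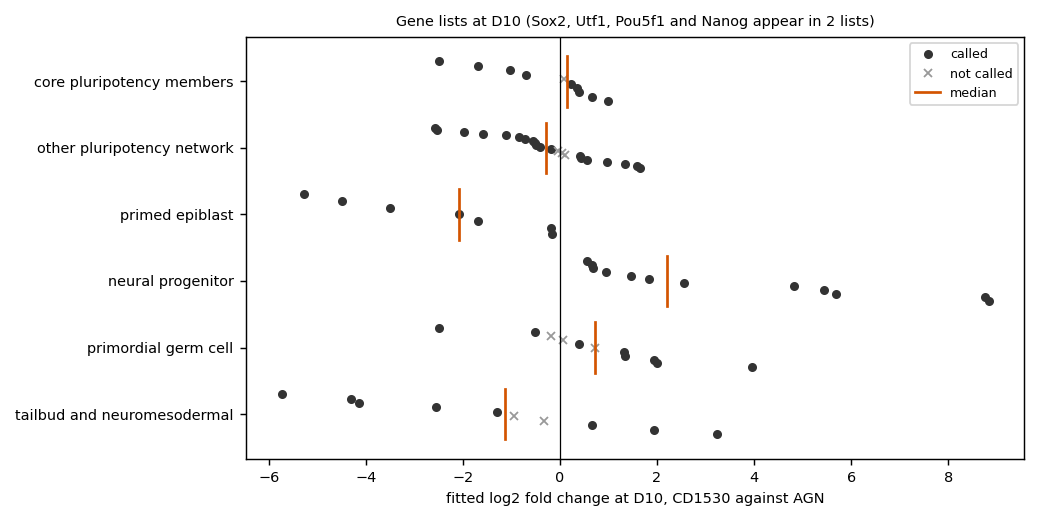
Fitted log2 fold change of CD1530 against AGN at D10 for each gene of 6 lists, dots for called genes, crosses for those not called, and an orange line at the list median. The 7 primed epiblast genes lie below 0 and the 12 neural genes above it, while members and other network genes lie on both sides. Fitted values of genes with no count in AGN (Dbx1, Neurog2) depend on the prior count and are no bounds.

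Profiles over the 11 group means (Pearson correlation of log2(CPM + 1), n = 11, a description in which groups share PM and the course of time) set Pou5f1, Klf4, Lin28a and Utf1 apart from the rest. Nanog, Sox2, Zfp42, Esrrb, Dppa5a and Tfcp2l1 correlated with each other at 0.93 to 0.99. Pou5f1 was closest to Utf1, at 0.93, and Klf4 correlated with no other member above 0.55. Among the 13686 genes averaging 50 counts or more, the profiles most like Pou5f1 were those of Deptor (0.987), an inhibitor of mTOR, Tdrd12 (0.979) and L1td1 (0.977). For Utf1 they were Fgf4 (0.989), Zic5 (0.984) and Ahdc1 (0.974). For Lin28a they were Gm17709 (0.995), Odc1 (0.986), the rate-limiting enzyme of polyamine synthesis, and Gm7993 (0.983). For Klf4 they were Clybl (0.983), Rp9 (0.960) and Urod (0.948).

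For Nanog the nearest were Elf3 (0.994), Ccdc43 (0.992) and Pigl (0.992), and for Sox2 Esrrb (0.991) and Gm8909 (0.990). Zfp42 was nearest to Trim6 (0.995), Cecr2 (0.993) and Tex10 (0.992), and Esrrb to Gm8909 (0.995), Cecr2 (0.994) and Tbc1d9 (0.992). Tfcp2l1 was nearest to Syt9 (0.991), Sfmbt2 (0.989) and Ints7 (0.989). The nearest to Dppa5a, Gm6798 (0.997) and Gm6083 (0.995), are pseudogenes that share 19.2% and 21.9% of its 31-base words, so that their counts may not be separate from its own, and Rpp25 (0.994) came next.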

How the data were processed

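Total RNA of 33 cultures (11 groups of 3) was sequenced by the authors, who aligned the reads with STAR to GRCm38, counted them per gene with featureCounts and deposited raw counts for 17120 genes. The annotation release, the use of strand and the handling of multimapping reads are not given in the sources used here. Deposited counts were fitted with edgeR 4.0.16 under R 4.3.3 (TMM scaling, filterByExpr, which removed no gene, robust quasi-likelihood fit, all 33 libraries with a mean for each of 11 groups). Benjamini-Hochberg adjustment ran over 17120 genes within each of 19 contrasts, and a call is an adjusted p under 0.05. CPM are TMM-scaled. The common biological coefficient of variation was 4.68%, and the fit was tested on simulated data.

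The study describes the replicates as biological. Whether each is a separate cell line is not given, so p-values measure the spread between these cultures. No replicate pair differed by less than sampling noise (lowest chi-square per gene 1.59). Named genes are the 10 members, the 3 genes with the most similar profile for each (1 of them is not reported here), the 2 genes with the largest called ligand difference at D10 of each list, and genes that lists share. Sox1, Tbx6, Msgn1, Nodal, Dnmt3b, Pou3f1, Zic2, Kdr and Usp17lc were named beside these after their values were seen. Gene lists (other network, primed epiblast, neural progenitor, tailbud and neuromesodermal, germ cell, 2-cell-like, endoderm, endothelial, paraxial mesoderm, tendon, cartilage) and members were chosen with earlier results of these data known. Lists are described by counts and medians only. Gene positions came from GENCODE (GRCm38), promoters from RefSeq. Alternatives were DESeq2 1.42.0, other scalings and filters, a replicate block, fits of the compared groups alone and leaving out each library. Count ratios within libraries, loss per step and the display of the Pou5f1 and Nanog promoters were added after the data were seen.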

Additional observations from a re-analysis of the deposited data

Results flagged for a closer look

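The difference between CD1530 and AGN changed with time for all 10 members, which is what marked them for a closer look (edgeR interaction over the 5 time points, groups of 3). The adjusted p was 6.74e-29 for Pou5f1, 1.62e-23 for Utf1, 4.68e-14 for Sox2, 1.38e-12 for Klf4, 2.78e-12 for Lin28a and 7.58e-12 for Nanog. It was 1.26e-06 for Dppa5a, 5.02e-06 for Tfcp2l1, 0.000333 for Esrrb and 0.00407 for Zfp42. Between D8.5 and D10 the ligand difference shifted by -1.56 (log2) for Pou5f1, -0.732 for Utf1, -0.731 for Klf4, -0.507 for Dppa5a, -0.464 for Nanog and -0.392 for Lin28a. With 48.8% of all genes called in the first test and 26.8% in the second, such changes were common in these data. Groups of 3 were not screened for single outlying libraries.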

How the results depend on the processing

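Of the counts of members called over 19 contrasts, 272 of 276 alternative values stayed within 1.5 times the reported count. Fitted on the compared groups alone, the members called between ligands were 3 at D6.25 and 3 at D6.75, and 1 for D7.5 against D6.75 in CD1530; over all genes the same fits called 804, 1236 and 2792, and 5185 for D6.75 against D6.25 in CD1530. Leaving out 1 library gave 196 to 276 genes at D6.25 and 3 to 7 members for D7.5 against D6.75 in CD1530, the lowest without replicate 3 of D7.5. The cause was not tested. Differences between ligands that reversed were near 0 and not called: Dppa5a at D6.25 (-0.0040 and -0.0031 without replicate 1 of CD1530 or of AGN, leave-one-out range -0.0040 to 0.052), Sox2 at D6.75 (-0.0028 with DESeq2 size factors, -0.0026 with DESeq2, and -0.0235, -0.0142 and -0.0295 without 1 library, range -0.0295 to 0.046) and Tfcp2l1 at D6.75 (-0.0616 and -0.0870 without replicate 2 or 3 of CD1530, range -0.0870 to 0.19).

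The day of 50% loss moved by more than an SD of single libraries, worked out from the leave-one-out values, in these cases. With library size only it was 0.255 for Zfp42 and 0.245 for Esrrb in CD1530, and 0.230 for Pou5f1, 0.227 for Nanog, 0.233 for Esrrb, 3.57 for Lin28a and 3.56 for Utf1 in AGN. With DESeq2 size factors it was 0.395 for Nanog in CD1530 and 0.216 for Pou5f1 in AGN. With linear interpolation it was 0.194 for Klf4, 2.76 for Utf1 and 0.207 for Tfcp2l1 in CD1530, and 0.230 for Pou5f1, 0.227 for Nanog, 0.231 for Esrrb, 0.207 for Klf4, 3.79 for Utf1 and 0.216 for Tfcp2l1 in AGN. Lin28a in CD1530 was at 2.95 with library size only. Scaling by library size alone moved the all-gene median by -0.127 (CD1530) and -0.113 (AGN) for D10 against D8.5 and by -0.152 for D10 against PM in AGN (log2).

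Same-numbered libraries did not deviate together (median correlation 0.00224, 14 of 165 pairs over 0.1, and 11 of 33 libraries correlated best with their own number), so the numbers pair nothing. A replicate block gave 1, 5, 9, 10 and 9 members called between ligands at the 5 time points, and 329, 3009, 4536, 6789 and 7914 genes, and it changed no other count of members.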
